A study of Rattus norvegicus with 9 samples.

Results

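MBD3 regions that recurred among stimulated rats and were missing from every sham list are described here. The members were chosen by the presence of a deposited MBD3 peak: distinct peak intervals of all 7 lists were merged where they shared at least 1 bp, and a region was kept if at least 2 of the 4 stimulated lists and 0 of the 3 sham lists had a peak in it, on chromosomes 1 to 20 or X. The rule kept 19226 regions of 176202 on these chromosomes, or 10.9%, and they covered 4.47 Mb. Since the rule itself reads peak presence in both groups, the difference in presence between the groups is a description of the set and not a result.

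MBD3 belongs to NuRD, a complex that joins histone deacetylation to ATP-driven nucleosome remodelling. Unlike its relative MBD2, mammalian MBD3 has little affinity of its own for methylated CpG, and NuRD is found at promoters and enhancers of active as well as silenced genes. In ChIP-seq, DNA crosslinked to the protein is precipitated with an antibody and sequenced, and a peak is a place where the tags pile up above a local background.

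All animals were male Sprague-Dawley rats with electrodes implanted in the left lateral amygdala. Stimulated rats (n = 4) received a 20 min train of 400 µA pulses that evoked status epilepticus, later stopped with diazepam at 20 mg/kg, and sham-operated rats (n = 3) were implanted without stimulation. No diazepam is recorded for the sham rats, so its effect and that of stimulation cannot be told apart, and the ages of the animals are not stated. The dissected tissue, taken on day 14, held the amygdala with piriform, perirhinal and entorhinal cortex. The lists hold peaks of a mixed tissue, so a site bound in more cells and a site bound more strongly per cell cannot be told apart, and the labelled tissue could not be checked against marker genes.

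Depth separated the groups before any region was compared. Filtered ChIP tags numbered 2436208 to 3668143 in the sham libraries and 4812579 to 17960510 in the stimulated libraries. Of all tags in the library of stimulated rat 3, 78.3% were removed as duplicates, against 9.10 to 39.1% in the other 6. The groups did not overlap in depth, and each group had its own input library, of 5241067 and 33279049 filtered tags. Depth, input and treatment therefore cannot be told apart in any comparison of the groups. Peak lists did not follow depth: on the chromosomes used, stimulated rats 1 to 4 had peaks in 9323, 108116, 2681 and 63656 regions, and sham rats 1 to 3 in 31622, 13742 and 11890. The deepest library, stimulated rat 1, thus had the second shortest list.

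The recurrent stimulated-only regions were almost all shared by the same pair of animals. Stimulated rats 2 and 4 and no other rat had a peak in 18718 of the 19226 regions, or 97.4% (95% Clopper-Pearson interval 97.1 to 97.6%, which like all intervals here covers counting error only). Stimulated rat 2 had a peak in 18894 members and stimulated rat 4 in 19120. Stimulated rat 1 had a peak in 366 and stimulated rat 3 in 169. The set therefore describes what these 2 libraries had in common, and not a pattern of 4 stimulated rats.

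**Figure D1:**
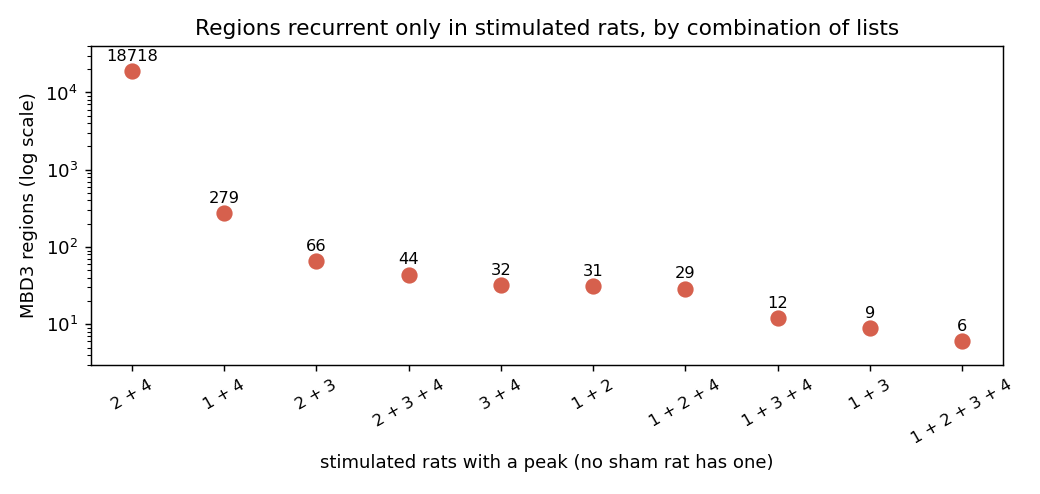
Number of stimulated-only recurrent MBD3 regions (log axis) for each combination of stimulated rats with a peak. Rats 2 and 4 alone hold 18718 regions, and the next combination, rats 1 and 4, holds 279.

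The remaining combinations were small. Stimulated rats 1 and 4 alone shared 279 members, rats 2 and 3 shared 66, rats 3 and 4 shared 32, rats 1 and 2 shared 31 and rats 1 and 3 shared 9. Peaks of 3 stimulated rats were found in 85 members and of all 4 in 6, so that 91 of 19226 members were seen in more than 2 animals. The combination of rats 1, 2 and 3 without rat 4 was the only one of the 11 possible that held no region. Stimulated rat 1 shared more members with rat 4 than with rat 2, although the list of rat 2 was the longer.

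The members made up different shares of each list. They were 30.0% of the regions of stimulated rat 4 and 17.5% of those of stimulated rat 2, against 6.30% for stimulated rat 3 and 3.93% for stimulated rat 1. Without stimulated rat 2 the rule kept 412 regions, and without stimulated rat 4 it kept 189. Without either stimulated rat 1 or stimulated rat 3 it kept 18907 and 19119, and 18798 without both, an alternative chosen after seeing the data.

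Outside the rule, 108825 regions had a peak in 1 stimulated list and in no sham list. Compared with these, the peaks of members were slightly taller in stimulated rats 2 and 4. In stimulated rat 2 the median pileup, the number of extended tags stacked at the summit, was 8 in members and 7 in regions called in that rat alone. In stimulated rat 4 these medians were 9 and 8. The median −log10 q given by the authors' peak caller was 4.81 in members and 3.85 in single-list regions for stimulated rat 2, and 3.89 and 3.10 for stimulated rat 4. In both rats the lowest −log10 q of a member was just above the deposited threshold, at 1.03 and 1.02. Calls with a −log10 q below 2 were 2.39% and 8.66% of the members of rats 2 and 4, but 41.8% and 45.0% of those of rats 1 and 3. In the single-list regions of rats 1 and 3 such calls were as frequent or more so, at 60.8% and 46.8%. Median pileup in members and single-list regions was 13 and 9 tags in stimulated rat 1 and 6 tags in both sets in stimulated rat 3. Median fold enrichment was lower in members in both, at 3.53 against 4.10 in rat 1 and 4.33 against 4.88 in rat 3.

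The mirror rule, a peak in at least 2 of 3 sham and in 0 of 4 stimulated lists, kept 1411 regions, or 0.801%. The rules are not equal tasks, because 4 lists, among them the 2 longest, had to lack a peak. Tested region by region, peak presence differed between the groups at an unadjusted p below 0.05 in 54 of 176203 regions, or 0.0306%, by Fisher's exact test (two-sided). After Benjamini-Hochberg adjustment 0 regions passed, or 0%, and with 7 rats the smallest p that test can give is 0.0286. Of the 54 regions, 6 were members, namely those called in all 4 stimulated rats. The test reads the same peak presence as the rule and adds nothing on the members.

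Each sham list that entered the rule removed a further part of the set. A peak in at least 2 stimulated lists was present in 29783 regions. Sham rat 1 alone left 21936 of them without a sham peak, sham rat 2 alone 25735 and sham rat 3 alone 25845. With sham rats 2 and 3 together 23390 were left, and adding sham rat 1 gave the final 19226. The list of sham rat 1, the longest and deepest of the sham lists, thus removed the most regions, and the count of members depends on how many sham lists are set against it.

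Regions of stimulated rats 2 and 4 were next divided by whether any sham rat had a peak in them. These rats shared 29331 regions, of which 18797, or 64.1% (95% interval 63.5 to 64.6%), had no peak in any sham rat and 10534 had one. Regions without a sham peak were narrower, with a median of 204 bp (quartiles 182 and 252 bp) against 284 bp (quartiles 219 and 390 bp). Merging widens a region with every list that adds a peak, so part of this follows from its construction.

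Regions without a sham peak were also lower. In stimulated rat 2 their median pileup was 8 tags (quartiles 7 and 10), against 10 (quartiles 8 and 13) for regions with a sham peak. In stimulated rat 4 it was 9 (quartiles 8 and 11) against 11 (quartiles 9 and 14). Height increased with the number of sham lists that had the peak: in stimulated rat 2 the medians were 9, 11 and 18 tags with 1, 2 and 3 sham lists, and in stimulated rat 4 they were 10, 11 and 18. Regions missed by all sham lists therefore sat at the low end of a graded series.

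Fold enrichment, which the authors' caller computes as pileup over local background with 1 added to each, separated the sets less. Its median was 5.58 without and 6.06 with a sham peak in stimulated rat 2, and 5.02 in both sets in stimulated rat 4. At least 4-fold enrichment was reached by 92.9% and 86.5% of the regions without a sham peak in rats 2 and 4, and by 93.3% and 84.5% of those with one. The highest pileups differed more: 111 and 191 tags without a sham peak in rats 2 and 4, against 215 tags in each rat with one.

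**Figure D2:**
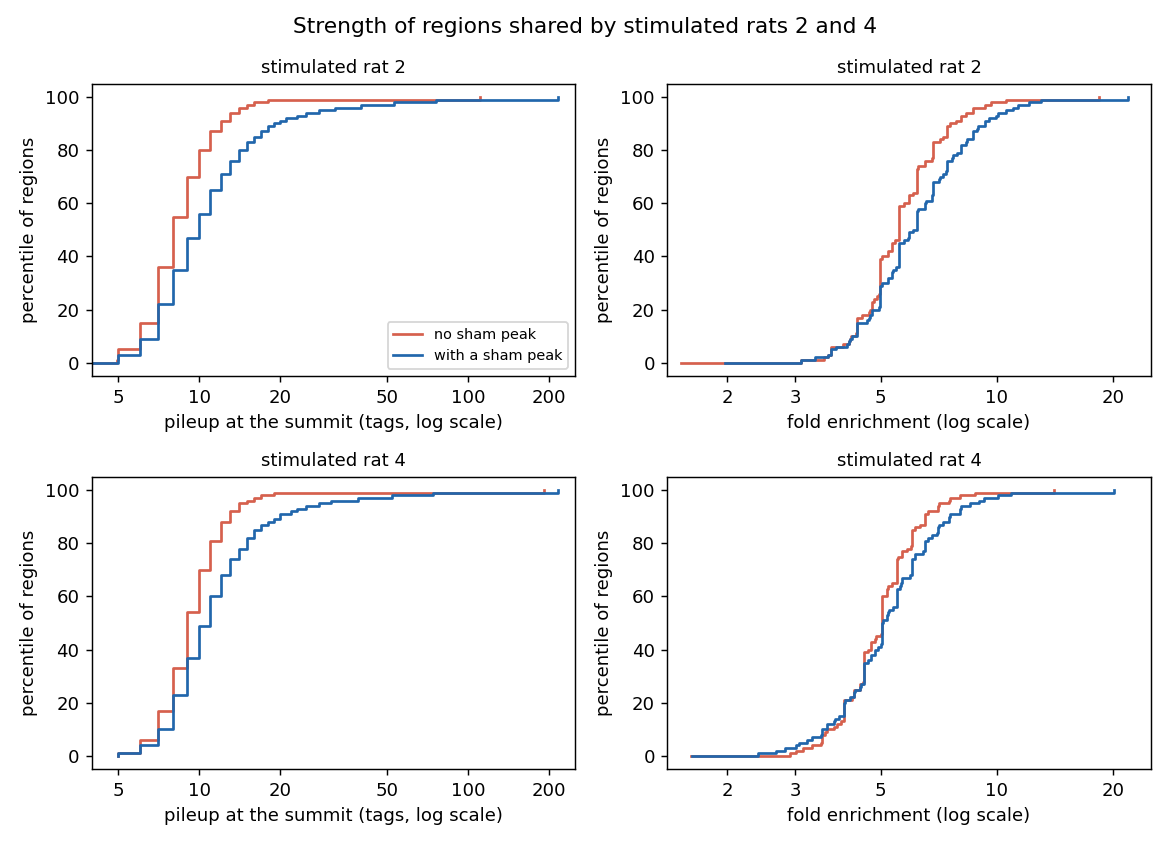
Percentiles of pileup (left, log axis) and fold enrichment (right, log axis) in stimulated rat 2 (top) and stimulated rat 4 (bottom), for regions they share without a sham peak (18797) and with one (10534). The curves without a sham peak lie to the left for pileup in both rats, with medians of 8 and 9 tags, and lie closer together for fold enrichment.

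Most members lay over ordinary background. The local background that the caller used can be recovered from pileup and fold enrichment, and was set against the genome-wide rate of ChIP tags. In 64.5% of the regions without a sham peak it was within 5% of the genome-wide rate in stimulated rat 2, and in 64.8% in stimulated rat 4, against 49.9% and 49.7% of the regions with one. A background of at least 5 times the genome-wide rate was found in 0.218% (rat 2) and 0.223% (rat 4) of them, against 5.04% and 4.97%. Regions called in 3 of 3 sham lists had such a background in 30.0% (rat 2) and 29.6% (rat 4) of cases. The caller's values for rats 2 and 4 rest on the same input, so they are not independent on this point.

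The share of regions without a sham peak fell steadily with pileup. With pileup expressed per 1000000 filtered tags and averaged over stimulated rats 2 and 4, it was 76.5% below 0.75 (n = 3240) and 73.4% from 0.75 to 1 (n = 13430). It was 58.6% from 1 to 1.5 (n = 10105), 29.9% from 1.5 to 2 (n = 1425) and 13.4% from 2 to 3 (n = 598). Above that it was 6.86% from 3 to 5 (n = 277) and 5.47% at 5 or more (n = 256). By the lower fold enrichment of the pair the share first rose and then fell. It was 31.2% below 2 (n = 32), 40.1% from 2 to 3, 66.6% from 3 to 4 and 70.2% from 4 to 5. From there it was 65.1% from 5 to 6, 49.8% from 6 to 8 and 21.3% at 8 or more (n = 662).

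What the sham libraries could have called was then read from depth. Stimulated rat 2 had 2.08, 2.81 and 3.13 times the filtered tags of sham rats 1, 2 and 3, and stimulated rat 4 had 3.37, 4.55 and 5.07 times. If a region held the same share of tags in a sham library as in the stimulated rat, its pileup would shrink by these factors. The lowest pileup that any sham list contained was 3 tags, and the median was 6 in sham rat 1 and 5 in the others.

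Scaled in this way, most members fell near or under the lowest called pileup. Taking the higher of the stimulated values, the median member would have had 3.85 tags in sham rat 1, 2.85 in sham rat 2 and 2.55 in sham rat 3. At least 3 tags were then reached by 87.1% of members in sham rat 1, 46.5% in sham rat 2 and 30.6% in sham rat 3. Taking the lower value, these shares were 26.9%, 5.46% and 2.77%. The median called pileup of at least 1 sham list was reached by 8.71% of members with the higher value and by 0.905% with the lower. Choosing the higher value favours chance highs, since a peak had to be high in a library to be called there.

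The sham lists themselves show how often a pileup of a given scaled height was called. Among the 29331 regions of stimulated rats 2 and 4, with the mean of both rats scaled to the sham library, a peak was called in sham rat 1 in 16.6% of regions from 2 to 3 tags and in 19.5% from 3 to 4 tags. The share rose to 48.7% from 5 to 6 tags, 77.7% from 8 to 10 tags and 96.6% from 15 to 20 tags. Sham rat 2 gave 8.41%, 17.6%, 43.7%, 72.4% and 90.5% in the same bins, and sham rat 3 gave 9.59%, 21.7%, 51.5%, 62.4% and 91.5%. In every bin from 6 tags upwards each sham library called at least 59.6% of regions, and the order of the 3 sham rats changed from bin to bin.

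The regions without a sham peak lay mostly at low scaled height. For the depth of sham rat 1, 53.6% of them lay from 3 to 4 scaled tags and 24.4% from 2 to 3. For sham rats 2 and 3, 69.3% and 65.3% lay from 2 to 3 tags. Members are defined by the lack of a sham call, so their place in bins with few sham calls follows in part from the rule. Low depth and absent binding would both give a low call rate in these bins, and these values cannot tell them apart.

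**Figure D3:**
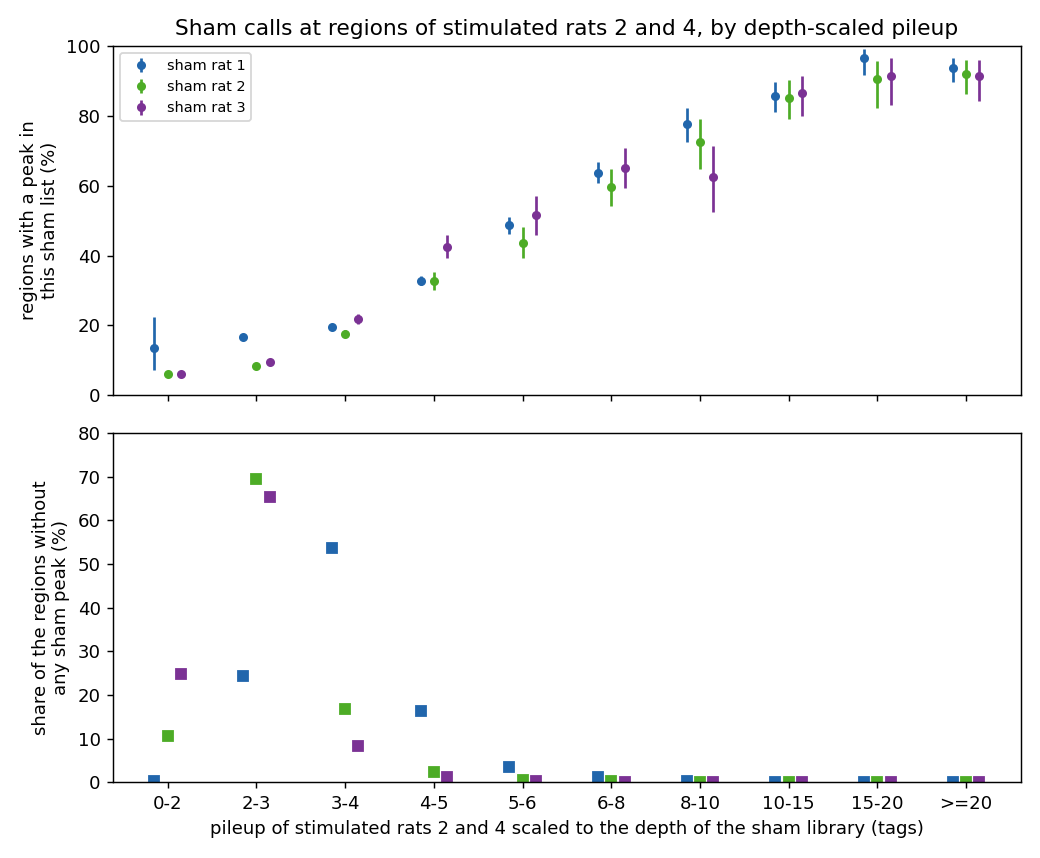
Top, share of the regions of stimulated rats 2 and 4 that have a peak in each sham list, by their mean pileup scaled to the depth of that sham library (tags; bars are 95% Clopper-Pearson intervals). Bottom, where the 18797 regions without any sham peak lie on the same axis: they sit mostly at 2 to 4 tags, where 8.41 to 21.7% of regions have a peak in a given sham list.

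Few members were tall enough that a sham peak would have been frequent at their height. If the lower value of stimulated rats 2 and 4 had to give at least 5 scaled tags in every sham library, with at least 4-fold enrichment in both rats, 286 shared regions qualified. Of these 23, or 8.04% (95% interval 5.17 to 11.8%), had no sham peak. At 10 scaled tags 46 regions qualified and 0 lacked a sham peak. Taking 3 in 46 as the limit for a count of 0 allows a share of up to 6.52%, and the 95% interval was 0 to 7.71%. Regions of that height and fold enrichment were thus shared with the sham rats in every case.

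Most members that were tall after scaling lay over raised background. In 115 members, of any combination of stimulated rats, the lowest value of any stimulated rat with a peak gave at least 5 tags in each sham library. In 103 of the 115 the background was at least 5 times the genome-wide rate in a stimulated rat, and the median lowest fold enrichment was 2.17. The lowest fold enrichment was at least 4 in 21 of the 115, with a highest of 13.3. By the values of rats 2 and 4 only, 43 of their shared regions without a sham peak were this tall. Most of the 115 therefore lacked a peak in rat 2 or in rat 4. In the 43 regions the median of the lower fold enrichment was 4.26, and 23 reached 4-fold in both rats. At 10 scaled tags 36 members were left, all 36 over such a background and none at 4-fold enrichment, with a highest lowest fold of 2.80. The background in the sham input at these places is not given by the lists, because no sham peak was called there, so its part in their absence was not tested.

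Presence in animals that had no part in a choice was examined next. Regions called in stimulated rat 2 and not in sham rat 1 numbered 92975. Stimulated rat 4 had a peak in 23.1% of them, sham rat 2 in 4.08% and sham rat 3 in 3.82%, whereas stimulated rat 3 had one in 0.140% and stimulated rat 1 in 0.0785%. Stimulated rats 1 and 3 thus had a peak less often than the sham rats left out of the choice, although their libraries were deeper. With 3 stimulated and 2 sham rats left, an exact two-sided rank test on their shares cannot go below 0.2, so none was made.

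The order was the same for each choice of stimulated rat 2 or 4 and a sham rat. Over the 6 choices, the other of stimulated rats 2 and 4 had a peak in 23.1 to 43.2% of the regions, the sham rats in 3.82 to 12.8%, and stimulated rats 1 and 3 in 0.0785 to 0.624%. The other of stimulated rats 2 and 4 exceeded a sham rat 2.12- to 10.1-fold. Its list was also longer, and the excess was 0.870 to 1.28 times the ratio of the list lengths. In regions called in a sham rat and not in stimulated rat 2 or 4, the excess was 0.929- to 5.53-fold, or 0.462 to 0.685 times the ratio of the list lengths. The 6 choices overlap and are not independent, and leaving out the regions of one sham rat also leaves out those it shares with the other sham rats.

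Stimulated rats 1 and 3 gave no added presence in the regions without a sham peak. Of the 18797 such regions of rats 2 and 4, stimulated rat 3 had a peak in 50, or 0.266% (95% interval 0.197 to 0.351%), and stimulated rat 1 in 35, or 0.186% (0.130 to 0.259%). Of the 10534 regions with a sham peak, stimulated rat 3 had one in 136, or 1.29% (1.08 to 1.53%), and stimulated rat 1 in 37, or 0.351% (0.247 to 0.484%). Where all 3 sham rats had a peak, stimulated rat 3 had one in 84 of 1312 regions and stimulated rat 1 in 18, or 1.37%. In both rats a peak was thus more frequent in the regions with a sham peak, taken as 1 set. For stimulated rat 3 the intervals did not overlap. For stimulated rat 1 they overlapped slightly, from 0.247 to 0.259%, which does not show that its shares were equal. Its share did not rise steadily with the number of sham lists. It was 0.259% (17 of 6575) with 1 list and 0.0756% (2 of 2647) with 2, the latter below the 0.186% with none. Of its 18 peaks with 3 lists, 94.4% lay over at least 5 times the genome-wide background.

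Stimulated rats 2 and 4 placed their summits close together. The median distance between their summits was 20 bp (quartiles 9 and 38 bp) in regions without a sham peak, and 83.2% of these regions had summits within 50 bp. With a sham peak the median was 24 bp (quartiles 10 and 50 bp). In the small combinations the summits were farther apart, with medians of 59 bp for rats 1 and 4, 77 bp for rats 2 and 3, 67.5 bp for rats 3 and 4 and 100 bp for rats 1 and 2. Positions in rats 2 and 4 thus matched far within the width of a region, which the 1 bp overlap of the rule did not ask for.

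Height matched less well than position. Across the 18797 regions without a sham peak, Spearman's rho of pileup between rats 2 and 4 was 0.22, and across the 10534 regions with one it was 0.52. Regions are not independent replicates, and the narrow range of pileup in the first set limits rho there. Across the 279 members of rats 1 and 4 alone rho was 0.84, in a set that spans tall pileups over raised background.

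Members were spread over all autosomes and were rare on X. No label or header names the build of the lists, and the available gene table describes assembly GRCr8. Positions are therefore those of the deposited lists, 1-based, and no gene, exon or promoter was assigned. There were 6.63 members per Mb over all chromosomes, with the last peak of any list taken as the chromosome's end. Autosomes ranged from 5.39 per Mb on chromosome 4 to 8.85 on chromosome 10, followed by 8.70 on chromosome 12 and 8.10 on chromosome 13. The X chromosome, present in a single copy in these males, had 0.699 per Mb. Regions of rats 2 and 4 with a sham peak were also rare on X, at 0.440 per Mb, against 2.75 to 4.72 per Mb on autosomes. The part of copy number in these low densities was not tested.

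The share of regions that lacked a sham peak varied over a narrow range between chromosomes. Among the regions of stimulated rats 2 and 4 this share ran from 58.3% on X (95% interval 50.3 to 65.9%, n = 163) and 60.4% on chromosome 14 to 68.5% on chromosome 8 and 69.3% on chromosome 10 (66.8 to 71.7%, n = 1409), around 64.1% for all. Chromosome 10 also had the lowest median pileup per 1000000 tags, at 0.929, and chromosomes 13 and 16 had the highest, at 0.979, with shares of 62.9% and 61.6%. The part of pileup in these differences was not tested. Chromosomes 10, 12, 19 and 20 together held 13.0% of members and 11.4% of the regions with a sham peak.

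**Figure D4:**
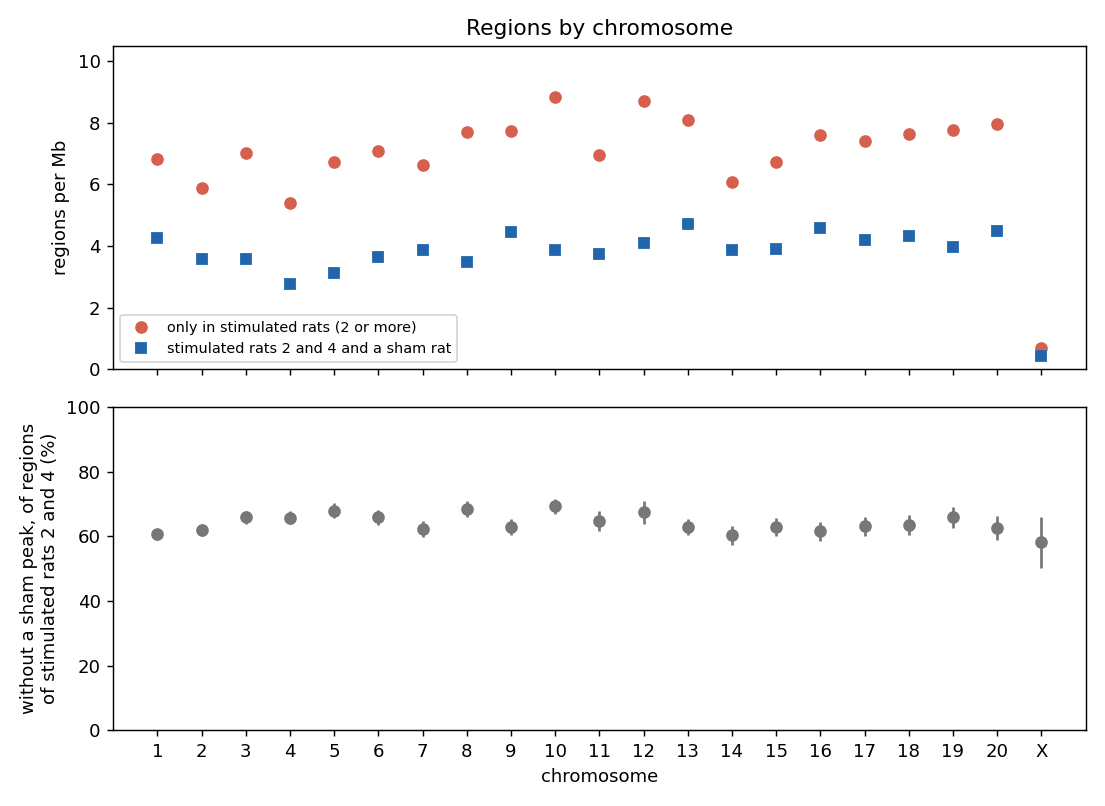
Top, regions per Mb by chromosome for the stimulated-only recurrent regions and for regions of stimulated rats 2 and 4 with a sham peak. Bottom, share of the regions of stimulated rats 2 and 4 without a sham peak (bars are 95% Clopper-Pearson intervals): the shares lie between 58.3% and 69.3%, and the X chromosome has few regions of either kind.

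On a finer scale most members had no other member nearby. Of 2914 windows of 1 Mb, 2656 (91.1%) held a member, with a median of 6 per window and 20 or more in 15 windows. The median gap to the nearest other member was 38570 bp, and 81.5% of members had no other member within 10 kb. The remaining 18.5% compare with 14.6% of the 10534 regions of rats 2 and 4 with a sham peak. In that smaller set the median gap to the nearest other such region was 70470 bp. Spacing beyond what these densities give was not tested. Regions within 5 Mb of a chromosome end were 6.81% of members and 6.96% of the regions of rats 2 and 4 with a sham peak. Location relative to the ends thus differed little between the sets.

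Distances to sham peaks were read from the lists. The median distance from a member to the nearest sham peak was 17502 bp (quartiles 6924 and 37381 bp). A sham peak lay within 1 kb of 807 members, or 4.20% (95% interval 3.92 to 4.49%), and within 10 kb of 33.7%. The largest distance was 779072 bp. The rule leaves out regions that overlap a sham peak, and no regions outside the set were measured. Whether members lay nearer to or farther from sham peaks than other places was therefore not tested.

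The fullest windows and chains differed in kind. The window with most members, at chr1:56000001-57000000, held 27, of which 11 were in both stimulated rats 2 and 4, and the median lowest fold enrichment there was 2.33. The next, at chr1:143000001-144000000, held 24, of which 23 were in both rats, at a median of 4.59-fold. Windows at chr13:40000001-41000000 and at chr16:81000001-82000000 held 23 each, and a window at chr10:105000001-106000000 held 22. In the last, all 22 were in both rats, and 4 regions of rats 2 and 4 with a sham peak lay beside them. The first window thus differs from the others in its low fold enrichment and its rats.

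Chains of members with gaps of up to 10 kb told the same. Only 13 chains had 5 or more members, with 84 members in all. The longest, 11 members at chr1:56906219-56953464, had a peak of stimulated rat 4 in 11 and of stimulated rat 1 in 9, a median lowest fold of 1.89 and a median background 26.2 times the genome-wide rate. The sham lists had 6, 5 and 4 peaks within the same stretch. By contrast, a chain of 10 members at chr16:37560559-37585520 was called in stimulated rats 2 and 4 throughout, at a median of 4.77-fold over 2.06 times the genome-wide background, and held 9, 2 and 5 peaks of sham rats 1 to 3. Further chains of 7 members at chr1:154933179-154956435 and of 6 at chr4:209834654-209839801 held no sham peak and had median backgrounds of 17.6 and 55.3 times the genome-wide rate.

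The strongest members by fold enrichment were peaks of stimulated rats 2 and 4, and the first 3 lay over ordinary background. The first lay at chr8:14105579-14105817 (239 bp), with pileups of 21 and 26 tags and 13.5- and 13.3-fold enrichment in rats 2 and 4. The second, at chr14:80841201-80841474, also had 21 and 26 tags, at 13.0- and 12.8-fold. The third, at chr11:401872-402118, had 18 and 24 tags at 11.8- and 12.6-fold. In each of the 3 both rats were high, and local background was at most 1.12 times the genome-wide rate.

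Scaled to the sham libraries, these regions were near or above the median called pileup of 6, 5 and 5 tags in sham rats 1 to 3. From the lower of rats 2 and 4, the chromosome 8 region would have had 7.72, 5.72 and 5.13 tags there. From the higher it would have had 10.1, 7.48 and 6.70 tags. Its nearest sham peak was 1372 bp away, that of the chromosome 14 region 2566 bp and that of the chromosome 11 region 49649 bp. Regions at chr16:47710016-47710344 and at chr11:74082049-74082619 followed, with lowest folds of 11.3 and 10.9. Of these, 4 also led by −log10 q, joined by a region at chr1:283441871-283442217 with 25 and 24 tags at 15.1- and 10.1-fold.

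Ranked by depth-scaled pileup among members of at least 4-fold enrichment, other regions led, with lower fold over raised background. The first, at chr1:55645219-55645451, had 30 and 47 tags at 5.36- and 4.67-fold, over 7.81 and 9.37 times the genome-wide background. It would have had 14.0, 10.3 and 9.27 tags in sham rats 1 to 3, and a sham peak lay 561 bp away. The second, at chr16:21649195-21649444, had 32 and 43 tags at 6.74- and 6.02-fold, with a sham peak 1900 bp away. The third, at chr1:210310329-210310571, had 28 and 40 tags at 7.59- and 7.67-fold, and its nearest sham peak was 14864 bp away. The other 2 lay at chr1:55287475-55287758 and chr1:55663880-55664052.

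Among members called in 3 or more stimulated rats, the 5 with the highest lowest fold enrichment were all called in rats 2, 3 and 4. The first lay at chr8:57268451-57268929, with 20, 9 and 16 tags at 9.78-, 6.34- and 7.64-fold in rats 2, 3 and 4, and its nearest sham peak was 80947 bp away. The second, at chr4:21040876-21041059, had 8, 7 and 11 tags at 5.58-, 5.77- and 6.03-fold. The third, at chr1:238125719-238125895, had 11, 7 and 10 tags. Regions at chr1:174753555-174753894 and at chr10:59265423-59265768 followed, each with 5.05-fold enrichment in stimulated rat 3. Scaled from the lowest of their rats, all 5 would have had between 2.97 and 4.75 tags in sham rat 1.

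**Figure D5:**
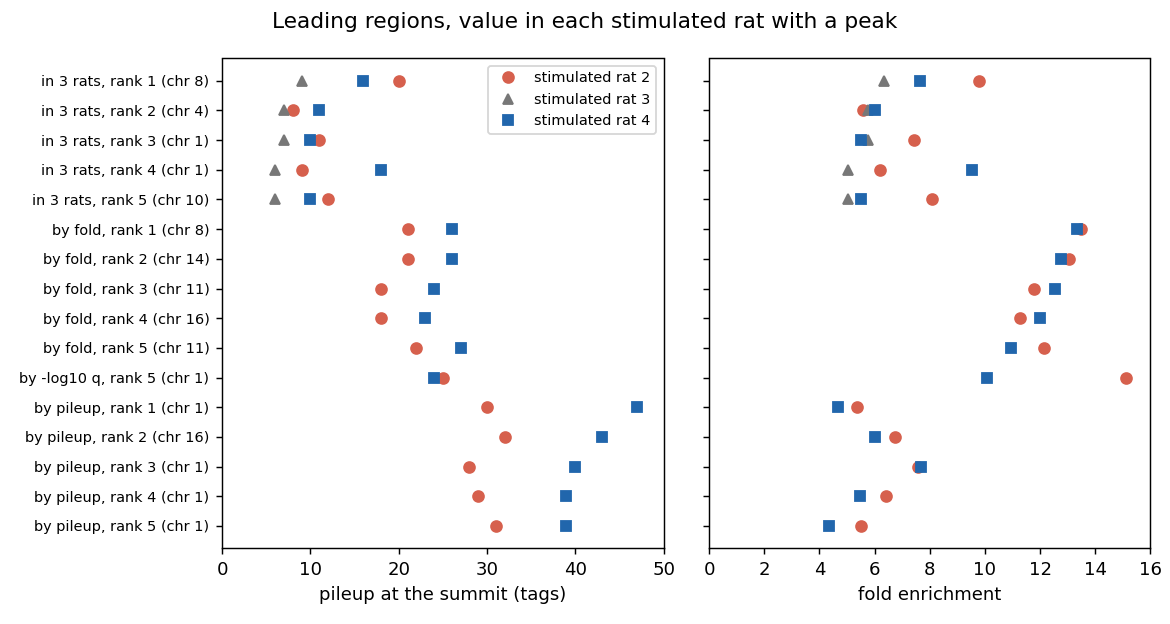
Pileup at the summit (tags, left) and fold enrichment (right) of the leading members in each stimulated rat with a peak, ranked within members of 3 or more rats, by lowest fold, by lowest −log10 q and by depth-scaled pileup. Regions leading by fold reach 10.9- to 13.5-fold at 18 to 27 tags, and those leading by pileup reach 28 to 47 tags at 4.36- to 7.67-fold.

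Members shared by stimulated rats 1 and 4 had lower fold enrichment and more often a raised background. In the 279 regions of rats 1 and 4 alone the median fold enrichment was 3.52 in rat 1 and 3.48 in rat 4, and the median pileup 13 and 9 tags. Background of at least 5 times the genome-wide rate was seen in 30.8% of them in either rat, against 0.107% and 0.118% of the regions of rats 2 and 4 alone. Chromosome 1 held 66 of the 279 (23.7%), compared with 10.1% of the regions of rats 2 and 4 alone, and chromosome 20 held 19 (6.81%), compared with 2.31%. A sham peak lay within 1 kb of 8.96% of them (95% interval 5.88 to 12.9%). The few regions of stimulated rat 1 with rat 2 or rat 3 alone did not share the raised background. In the 31 regions of rats 1 and 2 it was found in 3.23% in either rat, and median fold enrichment was 4.10 and 4.74. In the 9 regions of rats 1 and 3 it was found in 0 in either rat.

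Regions of 3 rats that include stimulated rats 1, 3 and 4, and those of all 4, lay over such background. In the 12 regions of rats 1, 3 and 4 it was found in every region in rats 1 and 4 and in 91.7% in rat 3. The median pileups were 105, 34 and 69 tags at 2.44-, 2.56- and 1.85-fold in the order of these rats. In the 6 regions of all 4 rats the median background was 41.8 to 61.2 times the genome-wide rate. In contrast, in the 44 regions of rats 2, 3 and 4 the median background was 1.01 to 1.07 times that rate, and median fold enrichment was 6.13, 4.61 and 5.02 in these rats. The 29 regions of rats 1, 2 and 4 were mixed: a background of at least 5 times the genome-wide rate was found in 37.9%, 41.4% and 37.9% of them in these rats. Median fold enrichment there was 3.44, 4.74 and 3.99, and 34.5%, 69.0% and 48.3% reached 4-fold. The 91 regions called in more than 2 animals were thus not of 1 kind.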

How the data were processed

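The data are 7 lists of MBD3 ChIP-seq peaks, 1 per rat, from 3 sham and 4 stimulated animals by the treatment label. Per the submitters' processing notes the caller was MACS2 2.1.0.20141030 and the notes also name Bowtie 1.0.0 and cutadapt 1.7.1. Per the file headers, peaks were called in each rat against the input of its group, with tags extended to 150 bp, a q threshold of 0.1, an effective genome of 1.87 Gb and 1 tag kept per position, and with several summits allowed per interval. Per the file headers the larger library, the input in every rat, was scaled to the smaller, so that the deposited pileup is a whole number of extended ChIP tags over the summit and is not comparable across rats without depth. Fold enrichment in the deposited lists is the ratio of pileup to local background, and the authors' −log10 p and −log10 q come from the same caller.

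Distinct intervals were merged across lists with Python 3.11.15, numpy 2.4.6, pandas 2.3.3 and scipy 1.17.1, and figures drawn with matplotlib 3.10.9. Where an interval or region had several summits, the highest was used. The local background was recovered from pileup and fold enrichment. Depth scaling multiplied a pileup by the ratio of filtered tags of the sham library to those of the stimulated library. A merging test on simulated intervals preceded the real lists. Named regions were the first 5 members by lowest fold enrichment (also among those of 3 or more rats), by lowest −log10 q and by depth-scaled pileup at 4-fold or more, and the 5 fullest windows and chains. The members, lists and rules were chosen with earlier results of these data known. Alternatives were stricter thresholds, equal list lengths, other merging and leaving out each rat. Leaving out stimulated rats 1 and 3 together, and the other settings of the Fisher and left-out-animal results, were added after seeing the data. Inputs were not analysed here beyond their tag totals. Precision is limited by depth, and 95% Clopper-Pearson intervals treat regions as independent counts.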

Additional observations from a re-analysis of the deposited data

How the results depend on the processing

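The number of stimulated-only recurrent regions, 19226, was 9030 with peaks at or above each list's median −log10 p and 432 with the 2692 strongest peaks of each list. Leaving out 1 rat gave 189 (without stimulated rat 4) to 23393 (without sham rat 1), with 412 without stimulated rat 2. With the settings −log10 q from 3 upwards, 4-fold enrichment or more, median −log10 p, equal lists, and 50 bp around summits, in that order, the share called in stimulated rats 2 and 4 alone (97.4%) was 99.2, 98.8, 98.2, 85.4 and 98.5%. It was 94.3% when gaps of up to 500 bp were merged, 100% without both stimulated rats 1 and 3, and 97.5 to 99.2% with 1 rat left out. In the same order of settings the share of regions of rats 2 and 4 without a sham peak (64.1%) was 73.7, 68.5, 68.3, 42.2 and 68.2%, and 64.1 to 78.2% with 1 rat left out. The share of members whose scaled pileup reached the lowest called pileup of a sham list (87.1%, at 3 tags in the main setting) was 13.2, 23.1, 40, 70.4 and 89.7%. It was 86.2% with gaps merged, 87.6% without both stimulated rats 1 and 3, and 48.9% (without sham rat 1) to 94.2% (without stimulated rat 4). It was 8.71% with the median called pileup as floor and 26.9% with the lower stimulated value. The lowest called pileup was read anew from the sham lists of each setting. In the 3 stricter settings it rises with the threshold, and with equal lists only the strongest peaks of each list set it. The shares under these settings are therefore not shares at 3 tags. The share within 1 kb of a sham peak (4.20%) was 2.19, 3.20, 2.76, 2.31 and 10.2%, 2.01% with gaps merged, 33.7% within 10 kb, and 2.17 to 9.22% with 1 rat left out. The share of regions of stimulated rat 2, without a peak in sham rat 1, that stimulated rat 4 also had (23.1%) was 21.5, 21.9, 20.9, 24.8 and 19.6%, and 24.6% with gaps merged. The cause was not tested for any of these. Fisher's exact test cannot pass adjustment with these numbers of rats, so its 0 adjusted calls under the settings run say nothing about stability. Unadjusted p below 0.05 was reached by 25 to 118 regions with all 7 rats. With a rat left out it was reached by 0, because the remaining rats are too few for a p that low. Shares that need stimulated rats 2 and 4, or sham rat 1, have no value without them. No paired analysis was possible because replicate numbers only follow the order of the samples and the main values are counts of regions with no test. Presence of a peak below the sham libraries' reach is limited by depth.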
